A study of Mus musculus with 8 samples.

Results

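N6-methyladenosine (m6A), a methyl mark that an enzyme complex places on adenosines of mRNA, was profiled with an anti-m6A antibody in epithelial cells of the mouse colon, and 7 genes of NF-kB signalling, cytokine response and apoptosis are described here: Nfkb2, Tnip3, Socs3, Ubd, Plaur, Lrg1 and Bax. They were selected by gene name from the authors' deposited table of m6A peaks that differed between genotypes. Each has 1 peak in it, so the members make up 7 of 168 listed genes and 7 of 195 listed peaks. The control group was Mettl14 f/f mice and the knockout group Mettl14 f/f; CDX-cre mice. All were untreated C57BL/6 animals of postnatal week 6, and both groups carry the floxed alleles. Each genotype had 3 m6A immunoprecipitates and 1 library of unenriched RNA (the input). Mettl14 is the subunit that holds and activates the catalytic subunit Mettl3 in the m6A writer complex. A Cre driven by Cdx regulatory sequence acts in intestinal epithelium; the labels do not name the Cdx gene, or say whether animals were pooled.

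NF-kB is a family of dimeric transcription factors held inactive in the cytoplasm until cytokines or microbial products release them, and in the intestinal epithelium it drives both inflammatory genes and genes of cell survival. Its output is limited by inhibitors that it induces itself, and cytokine receptors that signal through STAT factors are limited in the same way by SOCS proteins. When survival signals fail, Bax and its relatives open the outer mitochondrial membrane and start apoptosis. The study concerned NF-kB signalling and cell death in colonic epithelium that lacks the writer, so the comparison asks which transcripts of these pathways carried a different m6A signal.

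The authors' deposited table gives 1 value per peak and none per library. Depth and the spread between replicates are therefore unknown, no error can be attached to a value, and the labelled tissue could not be checked against the level of its markers. The table does not name the numerator of its log2 fold change. In exomePeak, the R package whose column names it carries, the treated arm is the numerator, so a positive value likely means a stronger signal in the knockout. Were it the reverse, every direction below would turn. Under the likely reading, 61.5% of the 195 listed peaks were stronger in the knockout, although it lacks a subunit of the writer. The reason was not tested. The sources used here do not state how the single input of each genotype entered the value, so more m6A per transcript and more transcript cannot be told apart, nor can fewer cells of a type and less RNA per cell. The X-linked RNAs Xist and Tsix also had listed peaks, Xist at -2.61, -2.43 and -2.83 and Tsix at -2.85. The Tsix peak and the Xist peak at -2.83 cover nearly the same bases on opposite strands, so they are not separate regions. The sex of the animals was not considered here, and its part in the values was not tested.

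All 7 member peaks had a positive log2 fold change, where 61.5% of all 195 listed peaks did. The members were picked from this contrast with its results known, so their shared sign is a description and was not tested. In the authors' deposited table their values ran from 0.92 for Bax to 4.76 for Lrg1, with a median of 1.71 against 1.30 for the 113 other positive peaks. Among the members, Lrg1 and Plaur were highest, followed by Nfkb2 and Ubd, then by Tnip3 and Socs3, and Bax was lowest. A log2 fold change of at least 1 was reached by 6 members, all but Bax, where 39.0% of listed peaks reached it, and one of at least 2 by Lrg1, Plaur and Nfkb2, where 15.4% did. The false discovery rate (FDR) of the difference lay between 2.4e-09 for Ubd and 0.025 for Tnip3, and 5 members passed a rate of 0.01, where 32.8% of listed peaks were positive and passed it.

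**Figure D1:**
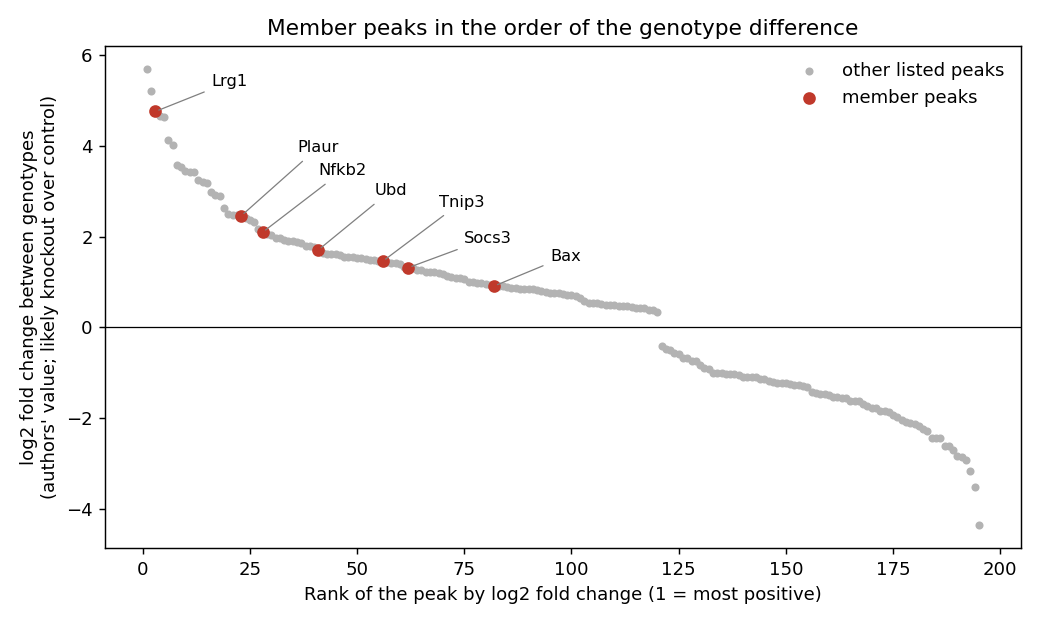
The authors' log2 fold change between genotypes for the 195 listed peaks, in order from the most positive to the most negative, with the 7 member peaks in red and all others in grey. The members lie between 0.92 and 4.76, all on the positive side.

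Several of these peaks begin at or near a transcription start, so the part of each that falls into a RefSeq promoter window can be read (250 bases before a start site and the first 50 of the transcript, build GRCm38.p6, the assembly of mm10). All 7 members matched, with 9 windows, 3 of them for Nfkb2. The first exon block of 5 member peaks reached into a window: those of Nfkb2, Ubd, Plaur, Lrg1 and Bax. The same share was not computed for the other listed peaks, so this count cannot be called particular to the members. The writer favours a methylated A in the core GGAC, and 4 of these 5 stretches hold that core on the transcript strand. The sites with GGACT, the form of the core most often methylated, and the second Lrg1 site are shown with GGAC in capitals, to let the covered sequence be seen; which adenosine was methylated is not resolved by the peaks.
Nfkb2, chr19:46305701-46305730, plus strand: tttcgGGACtttcctaagcagcactaactt
Ubd, chr17:37193905-37193934, plus strand: taagcagacacaaGGACtcttttcttattc
Plaur, chr7:24462500-24462529, plus strand: ggaagaacccatgGGACtcccaaggcggct
Lrg1, chr17:56121917-56121946, minus strand: ggtggGGACtatataaagccaccttcctgg
Lrg1, chr17:56121897-56121926, minus strand: accttcctggggtcttgaGGACagacatag

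The covered stretch was 50 nt long in Ubd, Lrg1 and Bax, and 18.9% of all 32851 promoter windows hold GGAC in the same 50 positions. It was 33 nt in Plaur, where 12.8% do. In Nfkb2 it was 44 nt in the second window, where 16.8% do, and 279 nt in the third, where 63.2% do. The stretch in the third window begins at position -229, so most of it lies before that start site. The 50 nt of Bax hold no GGAC, which says only that these letters are not in that window. The GGACT in the readable stretch of the Nfkb2 peak lies inside a match to the NF-kB binding motif, GGGACTTTCC at 46305705 to 46305714, so that this DNA motif is also part of the RNA under the peak. The match is a description and not evidence of binding or of methylation at that base.

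The promoters of the members are shown where they hold the motif of the factor for which the gene is known, so the display is chosen by its outcome. Windows of Plaur, Lrg1 and Bax hold neither the kB consensus nor TTCNNNGAA and are not printed. Each line gives the 250 bases before the start site, with matches to the kB consensus in capitals for Nfkb2, Ubd and Tnip3.
Nfkb2, chr19:46304487-46304736, plus strand: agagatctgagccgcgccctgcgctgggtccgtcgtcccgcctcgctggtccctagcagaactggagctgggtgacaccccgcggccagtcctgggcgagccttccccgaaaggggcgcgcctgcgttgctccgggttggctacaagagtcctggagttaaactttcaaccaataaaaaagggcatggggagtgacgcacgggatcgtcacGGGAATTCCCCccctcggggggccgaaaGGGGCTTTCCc
Ubd, chr17:37193642-37193891, plus strand: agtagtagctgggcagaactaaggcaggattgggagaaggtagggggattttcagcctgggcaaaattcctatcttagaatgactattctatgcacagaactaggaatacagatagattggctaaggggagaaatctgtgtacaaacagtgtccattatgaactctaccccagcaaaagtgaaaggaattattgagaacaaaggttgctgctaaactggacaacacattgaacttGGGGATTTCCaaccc
Tnip3, chr6:65590148-65590397, plus strand: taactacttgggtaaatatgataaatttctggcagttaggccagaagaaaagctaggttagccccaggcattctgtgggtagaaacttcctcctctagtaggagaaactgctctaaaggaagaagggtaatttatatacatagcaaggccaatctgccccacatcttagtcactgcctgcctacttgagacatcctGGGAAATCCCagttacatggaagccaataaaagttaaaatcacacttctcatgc
In Socs3 the capitals mark a match to TTCNNNGAA, the motif of STAT factors.
Socs3, chr11:117969367-117969616, minus strand: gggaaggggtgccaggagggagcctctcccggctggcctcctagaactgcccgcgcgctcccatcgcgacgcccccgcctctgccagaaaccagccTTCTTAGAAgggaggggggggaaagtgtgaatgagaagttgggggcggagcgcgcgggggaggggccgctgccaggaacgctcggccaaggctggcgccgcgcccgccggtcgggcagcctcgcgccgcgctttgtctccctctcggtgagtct

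The kB consensus, chosen after the data were seen and searched on both strands, was found in windows of 3 of the 7 members. It was found in 4.51% of all promoter windows. In this paragraph members are counted as genes, and Nfkb2 has 3 windows, while the shares are of windows. The counts and shares therefore do not compare directly. The match in Ubd, GGGGATTTCC, begins at position -15 counted from the start site, and that in Tnip3, GGGAAATCCC, reads on both strands and begins at -54. In the Nfkb2 window printed here there are 3 matches, of which GGGAATTCCC and GGAATTCCCC overlap each other and GGGGCTTTCC begins at -11. A looser form that keeps only the outer GGG and CC with any 5 bases between, searched on both strands, was present in all 7 members but also in 50.8% of all windows. TTCNNNGAA was found in Socs3, as TTCTTAGAA at position -154, and in Nfkb2, against 8.30% of all windows. The windows of Nfkb2, Socs3 and Plaur lie within the RefSeq span of their gene, which begins further upstream.

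Nfkb2 encodes the precursor p100, which holds the partner Relb in the cytoplasm and is cut to the DNA-binding subunit p52 in the noncanonical branch of the pathway. Its peak in the authors' deposited table had a log2 fold change of 2.1, a 4.29-fold difference (FDR 6.8e-05), and stood 28th of 195 in the order of log2 fold change. It lay at chr19:46305701-46306499 on the plus strand and was made of 3 exon blocks of 324, 82 and 14 nt. The first block held 77.1% of its 420 nt. The peak began 4707 nt from the 5′ end of a gene span of 11407 nt, but at position 7 counted from the start site of the second promoter window, so it sits at the front of any transcript that starts there. Enrichment over input was modest at 4.20-fold, just under the median of 4.43-fold for all listed peaks, with a log10 p-value of -16.3.

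Tnip3 belongs to a family of partners of the ubiquitin-editing inhibitor Tnfaip3 that is known for dampening NF-kB activation. Whether the mouse Tnip3 protein does so was not examined here. Its log2 fold change was 1.46 in the authors' deposited table, a 2.75-fold difference (FDR 0.025, the largest among the members). The peak, at chr6:65596188-65599883 on the plus strand, was the narrowest and the least enriched of the 7, with 180 nt in blocks of 10, 99 and 71 nt and an enrichment of 2.23-fold. By enrichment it was 170th of 195. It lay towards the front of the gene, with its midpoint at 17.5% of a gene span of 43643 nt, and ended 34157 nt before the 3′ end.

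Socs3 encodes a feedback inhibitor that STAT factors induce and that blocks receptors of the interleukin-6 family. The authors' deposited table gives it a log2 fold change of 1.32, a 2.50-fold difference (FDR 0.0054). Its peak, at chr11:117966955-117968122 on the minus strand, was the only one among the members with a single block, an unbroken 1168 nt. It covered 27.4% of the gene span, had its midpoint at 65.7% of it and ended 876 nt before the 3′ end, the latest midpoint of the members. With the midpoint weighted by block width, Ubd at 73.0% and Lrg1 at 67.6% were later. Enrichment was 14.4-fold, 30th of the list.

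Ubd encodes the ubiquitin-like modifier FAT10, which tumour necrosis factor and interferon gamma induce in epithelial cells. It had the smallest FDR of the members, 2.4e-09, ninth in the list by the p-value of the difference, with a log2 fold change of 1.71 or 3.27-fold in the authors' deposited table. The peak, at chr17:37193892-37196072 on the plus strand, began at the first base of the gene and spanned 98.7% of it, in blocks of 81 and 827 nt. It was also among the strongest peaks, with 36.9-fold enrichment and a log10 p-value of -78.0, ninth in the list by that p-value.

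Plaur encodes the urokinase receptor, a membrane-anchored protein of wound repair and cell migration. Its log2 fold change of 2.46, a 5.50-fold difference (FDR 0.0012), was the second highest among the members in the authors' deposited table. The peak, at chr7:24462500-24472599 on the plus strand, had the most blocks of the 7, with 68, 111, 144, 156 and 27 nt, separated by gaps of 518 to 5080 nt. These 506 nt of blocks reached over 67.2% of the gene span, and enrichment was 26.2-fold.

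Lrg1 encodes a leucine-rich glycoprotein that cells release in acute inflammation and that interleukin-6 type cytokines induce. Its peak spanned the RefSeq gene from end to end, at chr17:56119678-56121946 on the minus strand. That is 100% of the 2269 nt, with the gap of 916 nt between its blocks counted. The blocks of 86 and 1267 nt sum to 1353 nt, the widest of the members. The peak had the highest enrichment in the authors' deposited table, 152-fold, and the third most positive log2 fold change, 4.76 or 27.1-fold (FDR 3.2e-05). The next lower value in the list, Ncf4, was at 4.65 and the next higher, Ccl20, at 5.22.

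Bax encodes the pore-forming protein of the mitochondrial pathway of apoptosis. It had the smallest log2 fold change of the members in the authors' deposited table, 0.92 or 1.89-fold (FDR 0.018), and was 82nd of 195. The peak, at chr7:45466003-45466898 on the minus strand, was confined to the front of the gene. It began 5 nt from the 5′ end, held blocks of 157, 52 and 121 nt, and with its gaps reached over 17.2% of the gene span. Its midpoint, at 8.69% of the gene, was the earliest among the members. Enrichment was 3.31-fold, with a log10 p-value of -33.7.

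**Figure D2:**
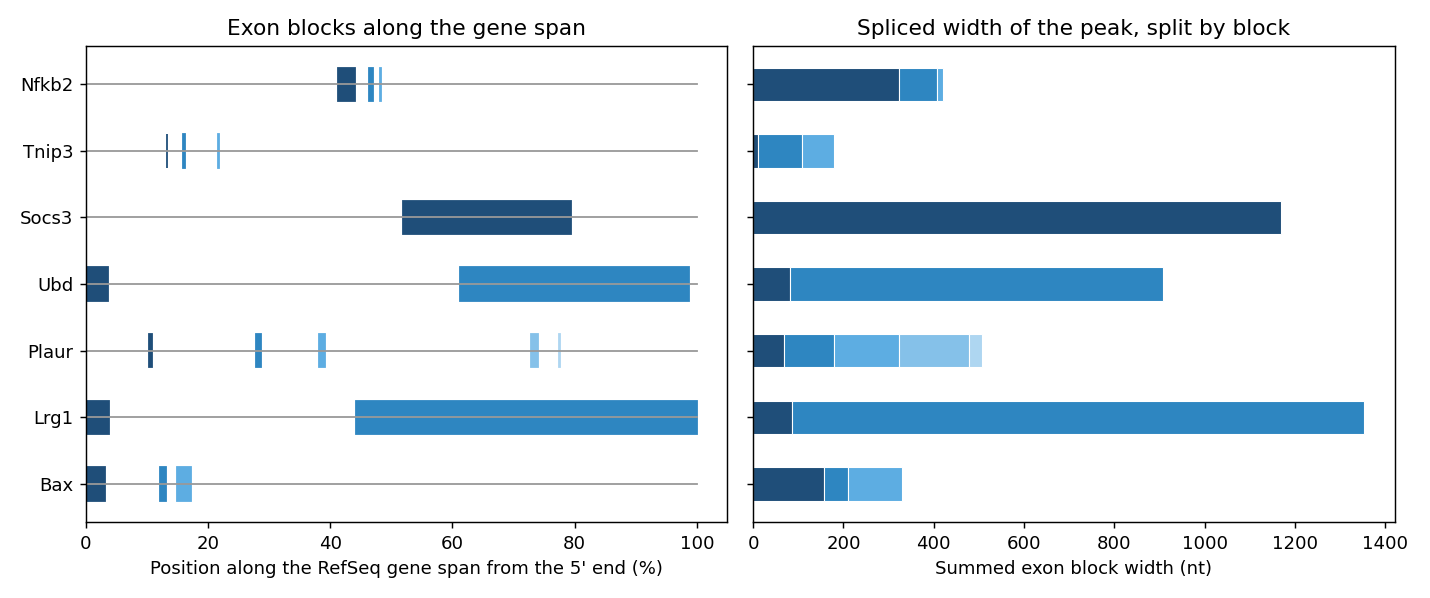
Left, the exon blocks of each member peak along the RefSeq gene span, in percent from the 5′ end, with each gene as a grey line and outlined bars so that narrow blocks remain visible; right, the widths of the same blocks in nt, stacked from 5′ to 3′ and shaded from dark to light. The peaks of Ubd and Lrg1 span 98.7% and 100% of the gene, those of Bax and Tnip3 lie near the front, and Socs3 has a single block of 1168 nt.

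The 7 peaks were of 3 layouts. Those of Ubd and Lrg1 began at the first base of short genes and ended 29 nt and 0 nt before the last, and 91.1% and 93.6% of their spliced width lay in the last block. Those of Nfkb2, Tnip3, Plaur and Bax were spread over 3 or more blocks of at most 324 nt, and that of Socs3 was a single long block. Over 1 block was found in 6 of 7 members (85.7%), against 74.3% of the 113 other positive peaks and 16.0% of the 75 negative ones. Blocks numbered 3 or more in 57.1% of the members, in 58.4% of the other positive peaks and in 1.33% of the negative ones. The median midpoint was at 44.8% of the gene span for the members and at 46.8% for the other positive peaks. For the negative peaks it was at 91.7%, close to the 3′ end. In layout the members were thus near the positive peaks in general, and these shares were not tested. No other RefSeq gene overlapped a block of a member. None of the 7 overlapped a listed peak on the opposite strand, where only 5 of all 195 listed peaks did.

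Enrichment divided the members more widely than the genotype difference did. Lrg1, Ubd, Plaur and Socs3 were above the list's median of 4.43-fold, with 14.4-fold to 152-fold, and Nfkb2, Bax and Tnip3 below it, with 2.23-fold to 4.20-fold. The share above the median, 57.1%, was near the 56.6% of the other positive peaks. The members' median was 14.4-fold, against 4.85-fold for the other positive peaks. Nfkb2 exceeded Ubd and Socs3 in log2 fold change while its enrichment was lower than theirs, so the orders by enrichment and by difference were not the same.

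**Figure D3:**
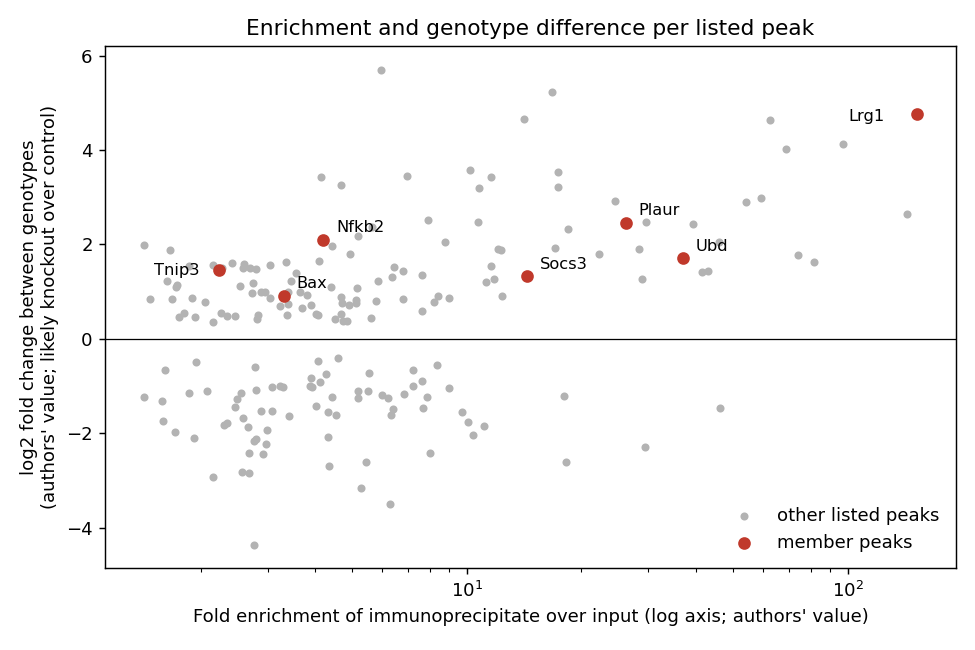
Fold enrichment over input (log axis) against the log2 fold change between genotypes for each of the 195 listed peaks, with the 7 members in red. Lrg1 stands at the far right at 152-fold and 4.76, and Tnip3, Bax and Nfkb2 lie on the left at 2.23-fold to 4.20-fold.

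For each member the most similar peak of another gene was taken as the one nearest in log2 fold change, enrichment, spliced width and number of blocks, 4 values of a peak that hold no information on single samples. The closest pair was Tnip3 and the second peak of the antimicrobial lectin gene Reg3g (1.49, 2.59-fold, 179 nt, 3 blocks), at a distance of 0.153 standard deviations. The nearest to Bax was the DNA repair gene Apex1 at 1.23 (distance 0.236), and the nearest to Ubd was Basp1 at 2.05 (0.391). The chemokine gene Ccl9 at 1.97 was nearest to Nfkb2 (0.538), Clu, which encodes the chaperone clusterin, at 2.92 to Plaur (0.715), and the ligand gene Bmp4 at 1.27 to Socs3 (0.719). Lrg1 had the most distant nearest peak, in Tchh at 4.13 (0.906).

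Most of the genes around the members in these pathways had no listed peak. Of 33 NF-kB subunits, kinases and inhibitors, Nfkb2 and Tnip3 were listed, which is 6.06%, where 0.740% of RefSeq protein-coding genes had a listed peak. Nfkbia, which encodes the main cytoplasmic inhibitor, had 0 listed peaks, as had Tnfaip3 and the subunit genes Nfkb1, Rela, Relb and Rel. Of 25 genes that act in TNF receptor signalling or in cell death 0 were listed, and of 22 genes of the Bcl-2 family and p53 apoptosis only Bax, without its relatives Bak1, Bcl2 and Bcl2l1. Of 34 genes of cytokine receptors, JAK-STAT signalling and SOCS proteins only Socs3 was listed. These lists were written with the members known and hold them, so the shares support nothing about the pathways.

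The list of 28 inflammation-induced epithelial genes had 6 with a listed peak, all positive: the members Ubd, Plaur and Lrg1, and Ccl20, Reg3g and Tgm2. That is 21.4% of the list, where 0.740% of RefSeq protein-coding genes had a listed peak and 61.5% of listed peaks were positive, but 3 of the 6 are members, which were selected for being listed. In the authors' deposited table Ccl20, a chemokine that NF-kB induces in epithelium, was at 5.22 (FDR 1.9e-10, 16.7-fold enrichment), above every member. Reg3g had 2 peaks, at 1.98 and 1.49, and Tgm2, a transglutaminase, was at 0.91 (FDR 0.043). A gene with no listed peak may have been tested without passing or never had a peak, and the table does not tell these cases apart.

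Markers of other cells were counted in the same way, against the 0.740% of all RefSeq protein-coding genes with a listed peak. Of 21 leukocyte markers 0 had a listed peak, of 12 stromal and endothelial markers only Col1a1 (8.33%), at 1.61 (FDR 0.035), and of 16 colon epithelial markers only Chga (6.25%), at -0.49 (FDR 0.0013). These counts depend on which genes the lists hold. Macrophage genes outside the leukocyte list did have listed peaks, and 4 are named here after their values were seen: the complement genes C1qa at 1.92, C1qb at 2.36 and C1qc at 2.47, and Mpeg1, which encodes the pore-forming perforin-2, with peaks at 2.42 and 1.79. These positive values stand beside those of the members, and their part in the members' values was not tested. Of the 20 m6A writers, erasers and readers 0 were listed, Mettl14 and Mettl3 included, so the deletion itself could not be checked in this table.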

How the data were processed

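Per the submitters' processing notes, the tools were HOMER 4.10.0, HISAT2 2.1.0, R 3.6 and Trim Galore 0.6.5, and the build was mm10; no source used here names the peak caller. The authors deposited 1 table of 195 differential peaks. Per the file headers, its values are a fold enrichment over input (a linear ratio), the p-value of that enrichment, its log10 p-value and log10 FDR (treated as a score, since values fall below the usual log10 range), and, for the genotype difference, a log10 p-value, a log10 FDR and a log2 fold change. The largest FDR deposited was 0.05. The log10 of the p-value and the deposited log10 column differed by at most 0.02.

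From the table, log10 FDRs were turned into linear values, coordinates into 1-based ones, and blocks summed into spliced widths (Python 3.11.15, pandas 2.3.3, numpy 2.4.6). Gene spans and promoter windows came from RefSeq, GRCm38.p6; of 168 names 4 matched as older symbols. The functions were tested on simulated data. No test was run, since the table gives no value per library. Members, lists and motifs were chosen with earlier results of these data known. Named genes are the members, list genes with a listed peak, the most similar peaks, neighbours in the order, and Mettl14, Mettl3, Nfkbia and Tnfaip3. The other unlisted genes, the macrophage genes, Xist, Tsix and the cell-death genes of the closing section were added after the values were seen. Exon annotation, genome and protein sequence were not used here.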

Additional observations from a re-analysis of the deposited data

How the results depend on the processing

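A stricter FDR of 0.01 left 5 members (without Tnip3 and Bax), where 32.8% of listed peaks are positive and pass, and a log2 fold change of at least 1 left 6 (without Bax), where 39.0% pass. A log2 fold change of at least 2 left 3 members, Nfkb2, Plaur and Lrg1, where 15.4% pass. The median enrichment as a minimum left 4, where 50.8% of listed peaks pass. Fewer pass by construction. The members' median rank in the list was 30 by fold enrichment and 52 by the p-value of the enrichment. Genomic span, which includes introns, gave a median width of 2181 nt in place of 506 nt. The kB consensus, chosen after seeing the data, was found in 3 members in place of 7 for the looser motif. Dropping peaks that overlap the opposite strand left 7, and 1 peak per gene changed nothing, as each member has 1. The median midpoint weighted by block width was 45.4% of the gene span, against 44.8%. No paired analysis was possible because single libraries have no values in the deposited file, and for that reason no replicate was left out in turn. Read counts are unknown, so limits of depth cannot be given.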

Other observations

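Genes with a role in cell death that were on none of the lists also had listed peaks, and were picked after the table was seen. In the authors' deposited table Phlda3, a p53 target that restrains Akt, was at a log2 fold change of 1.41 (FDR 0.03) with 41.5-fold enrichment. Dapk2, a kinase of the death-associated family, was at 1.34 (FDR 0.0026), beside Socs3 in the order of values. Sfn, which encodes 14-3-3 sigma, another p53 target, was at 0.58 (FDR 0.0018) in a single block of 1494 nt. Tnfaip8l2, an inhibitor of inflammatory signalling in immune cells, was at 1.78 (FDR 0.035) with 74.2-fold enrichment, next above Ubd. All 4 are positive, the sign of 61.5% of the listed peaks, and no test was made of a set chosen in this way.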
